A study of Homo sapiens with 9 samples.

Results

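Cap'n'collar (CNC) factors are basic leucine zipper transcription factors that bind DNA as dimers with a small MAF protein, at sequences called antioxidant response elements. NFE2L1 is anchored in the endoplasmic reticulum and activates proteasome genes once it is released, NFE2L2 (also called NRF2) activates antioxidant and detoxification genes, NFE2L3 is a less studied relative of NFE2L1, and NFE2 is known from blood platelets and red cell precursors. BACH1 and BACH2 pair with the same small MAFs but repress, MAFF, MAFG and MAFK are the small MAFs, and KEAP1 is the adaptor that directs NFE2L2 to the proteasome. These 10 genes were taken by symbol from a deposited table of 58174 genes, in which each of them had exactly 1 row, and they are described here in all 9 libraries.

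RNA came from cells labelled HepG2, a human liver tumour line. The control group, labelled WT, consists of cells with the pLVX vector, according to the protocol text. The other groups are a line overexpressing NFE2L1 and a line overexpressing a form written NFE2L1DC, for which the protocol has a delta sign before the C (the sources used here do not give how much is deleted). Each group has 3 libraries, all from cells in high glucose DMEM with FBS. The labels do not say whether the overexpressing lines are single clones or whether the libraries of a group are separate cultures, so the p-values describe the spread among these libraries, which may be technical. Values are TPM, an abundance that the authors scaled for gene length and to the same total in each library. TPM can be compared between genes, although libraries can differ in their trend with GC content, and a change in a few abundant genes shifts all others.

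The defining markers of liver cells were absent from these libraries. Of 10 such markers all 10 were under 1 TPM in every library, and ALB, APOB, TTR, SERPINA1, FGB and GPC3 were listed at 0 in all 9. The 10 together summed to between 0.0452 and 0.114 TPM in control, 0.0652 to 0.319 TPM with NFE2L1 and 0.0578 to 0.227 TPM with NFE2L1DC. The cells are therefore called by their label only. The leukocyte markers PTPRC, ITGAM and AIF1 were listed at 0 throughout, while CD68 was at 22.1 to 41.6 TPM and CSF1R at 1.66 to 4.15 TPM. This list of 6 summed to 24.2 to 25.8 TPM in control, 35.8 to 43.7 TPM with NFE2L1 and 26.5 to 29.2 TPM with NFE2L1DC. Of 8 fibroblast and endothelial markers 2 were above 1 TPM in every library, COL1A1 (15.9 to 22.2 TPM) and PDGFRB (2.93 to 7.62 TPM), and COL1A2 was listed at 0 in all 9. The 8 summed to 27.0 to 33.9, 20.7 to 29.2 and 24.7 to 28.3 TPM in control, the NFE2L1 line and the NFE2L1DC line. Control replicate 3 stood apart from the other control libraries: its deviation from the gene means ran against GC content (Spearman's rho -0.421 across 11445 protein-coding genes), whereas that of control replicates 1 and 2 ran with it (0.612 and 0.503). The same value was -0.282, -0.259 and -0.344 in the NFE2L1 libraries and -0.392, -0.042 and 0.189 in the NFE2L1DC libraries. Control replicates 1 and 2 thus lay above every overexpressing library in this trend, and control replicate 3 below. Results that rest on control replicate 3 are given with and without it. Without it the control group differs from both lines in this trend, and the part of the trend in those results was not tested.

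The element bound by CNC and small MAF dimers was searched in the RefSeq promoters of the members (build GRCh38.p14, 250 bases before to 50 after each start), because several CNC network genes are known to carry such elements themselves. Promoters were held for 8 of the 10 genes in 14 windows of 300 bases. The core TGACNNNGC was found, on either strand, in 2 of the 14 windows, those of KEAP1 and MAFF, and in 13.3% of all 35116 windows. The motif TGAGTCA, which AP-1 and NFE2 dimers bind, was found in 1 window, that of BACH1, and in 4.95% of all. The motifs can overlap, since TGACTCA, the reverse complement of the latter, followed by GC fits the former. The matches are printed 5′ to 3′ on the strand that carries them, with the motif in capitals and 10 bases on each side. KEAP1 has 2 in the same window, at chr19:10502807-10502835 (minus strand) and chr19:10502784-10502812 (plus strand), MAFF has 1 at chr22:38201862-38201890 (minus strand) and BACH1 has 1 at chr21:29298864-29298890 (plus strand).
KEAP1, minus strand: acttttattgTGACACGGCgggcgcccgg
KEAP1, plus strand: caggtcaccaTGACTAAGCagagccgggc
MAFF, minus strand: cgcccccgtaTGACCCCGCcccctggaag
BACH1, plus strand: gcggaaggagTGAGTCAcctgaccgct
These matches are descriptions of the letters, and none of the 3 genes passed the test in any comparison below.

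In the 3 control libraries the messengers fell into levels that kept their order in most libraries. NFE2L1 was the most abundant member in all 9 libraries and KEAP1 came next in all 9. MAFK (mean 26.8 TPM in control), MAFG (23.5 TPM) and NFE2L2 (20.8 TPM) formed the next level, with overlapping ranges, and MAFK exceeded MAFG in 5 of the 9 libraries. NFE2L2 lay below both in control replicates 1 and 2 and above both in control replicate 3, libraries that differed in their trend with GC content. MAFF (4.48 TPM) lay below NFE2L2 in all 9 and above NFE2 (3.54 TPM) in 8. NFE2, BACH1 (1.79 TPM) and NFE2L3 (1.58 TPM) overlapped as neighbours in control, and BACH2 was last in every library. The mean of NFE2L1 in control exceeded that of 87.9% of the genes tested, KEAP1 that of 81.2% and NFE2L3 that of 13.3%.

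**Figure D1:**
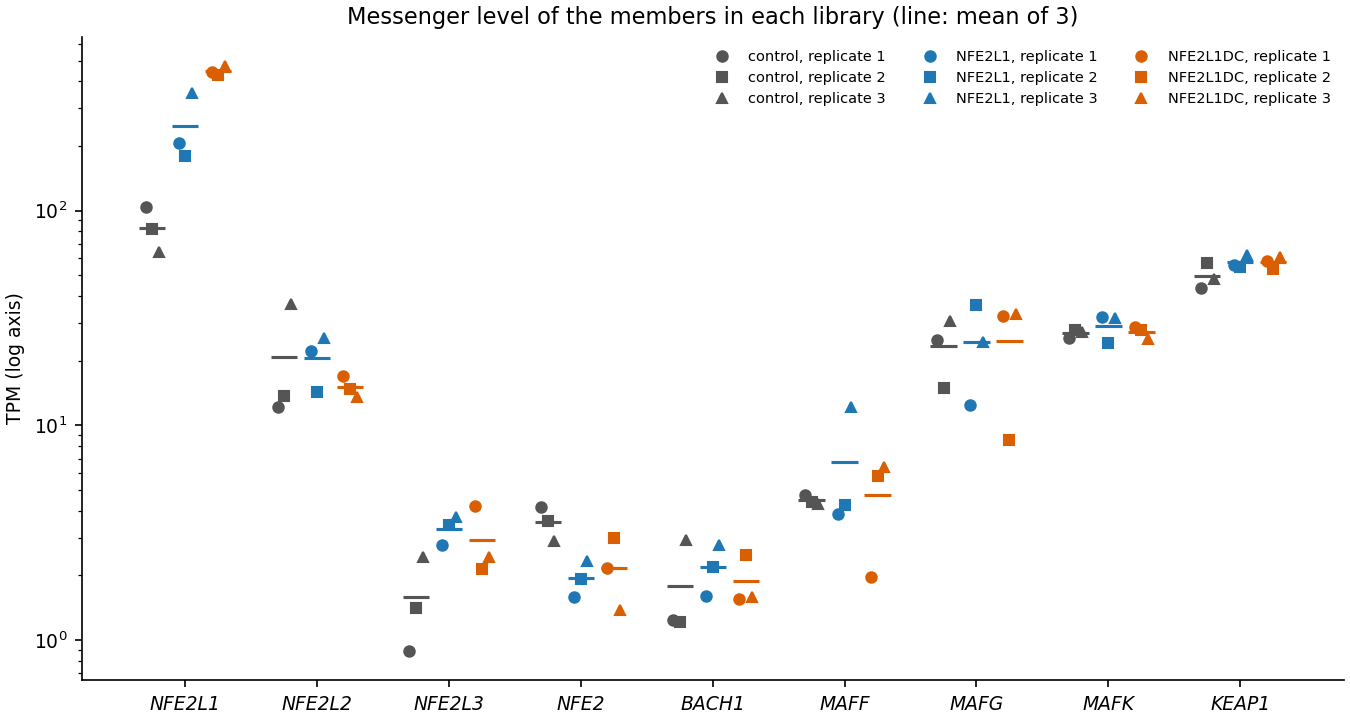
TPM (log axis) of the 9 members that were tested, in each of the 9 libraries; colour gives the group, symbol the replicate number and the short line the mean of 3. NFE2L1 separates the 3 groups completely, whereas the points of NFE2L2, MAFF and MAFG spread widely inside groups and those of MAFK and KEAP1 stay close together.

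Of the 9 members tested, 1 changed against control in each overexpressing line, NFE2L1 itself. It (ENSG00000082641, GRCh38 chromosome 17, 48048329 to 48061487, plus strand) was at 104.2, 81.7 and 64.0 TPM in control, 207.3, 180.6 and 354.3 TPM with NFE2L1 and 444.9, 426.7 and 472.1 TPM with NFE2L1DC. No value of one group lay inside the range of another, as held for 32.1% of all genes between the NFE2L1 line and control and for 22.7% between the NFE2L1DC line and control, and NFE2L1 replicate 3 stood well above the other libraries of its line. Differences were tested with limma on log2(TPM + 1) across the 14118 genes that reached 1 TPM in at least 3 libraries, with Benjamini-Hochberg adjustment and a threshold of 0.05. Between the NFE2L1 line and control the log2 fold change was 1.52 (95% interval 0.98 to 2.07, SE 0.24, adjusted p = 0.00582), a fold of 2.97. Between the NFE2L1DC line and control it was 2.44 (1.90 to 2.98, SE 0.24, adjusted p = 0.0014), a fold of 5.38. Both calls held in all 17 other settings. The count of 1 in 9 stands beside 10.4% of all genes called in the NFE2L1 line and 3.61% in the NFE2L1DC line, and the 1 called is the gene that was introduced. Without control replicate 3 the members called were 3 and 2, with NFE2L3 added in both lines and NFE2 in the NFE2L1 line, and 36.3% and 24.7% of all genes were called. Gene-level values do not separate the introduced from the endogenous messenger.

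The lines were then compared with each other, where 0.793% of all genes were called (0.715% higher in the NFE2L1 line, 0.0779% lower). For NFE2L1 the log2 fold change of the NFE2L1 line against the NFE2L1DC line was -0.92 (95% interval -1.46 to -0.37, limma adjusted p = 0.228), with the NFE2L1 line at 0.552 times the mean of the other. That missed the threshold although the libraries did not overlap, which was also true of 18.0% of all genes. Without NFE2L1 replicate 3 it was -1.21 and passed (limma adjusted p = 0.0438). The spread differed between the lines, with a coefficient of variation of 37.8% in the NFE2L1 line, 5.1% in the NFE2L1DC line and 24.2% in control. The mean of NFE2L1 exceeded that of 95.9% of tested genes in the NFE2L1 line and of 97.9% in the NFE2L1DC line.

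Among 6871 other protein-coding genes with a mean of at least 10 TPM, the pattern most like that of NFE2L1 over the 9 libraries was that of USP36, a nucleolar deubiquitinase (Pearson's r 0.979 in log2(TPM + 1)), followed by TMEM109 (0.977) and CDC42EP1 (0.965). These correlations describe libraries that share 3 groups and are given with no p. USP36 went from 45.6 ± 1.28 TPM in control to 57.9 ± 4.08 TPM with NFE2L1 and 66.4 ± 4.03 TPM with NFE2L1DC (SD, n = 3), and TMEM109 from 90.5 ± 3.64 to 107.5 ± 3.68 and 125.8 ± 4.28 TPM. Their steps were thus far smaller than those of NFE2L1.

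**Figure D2:**
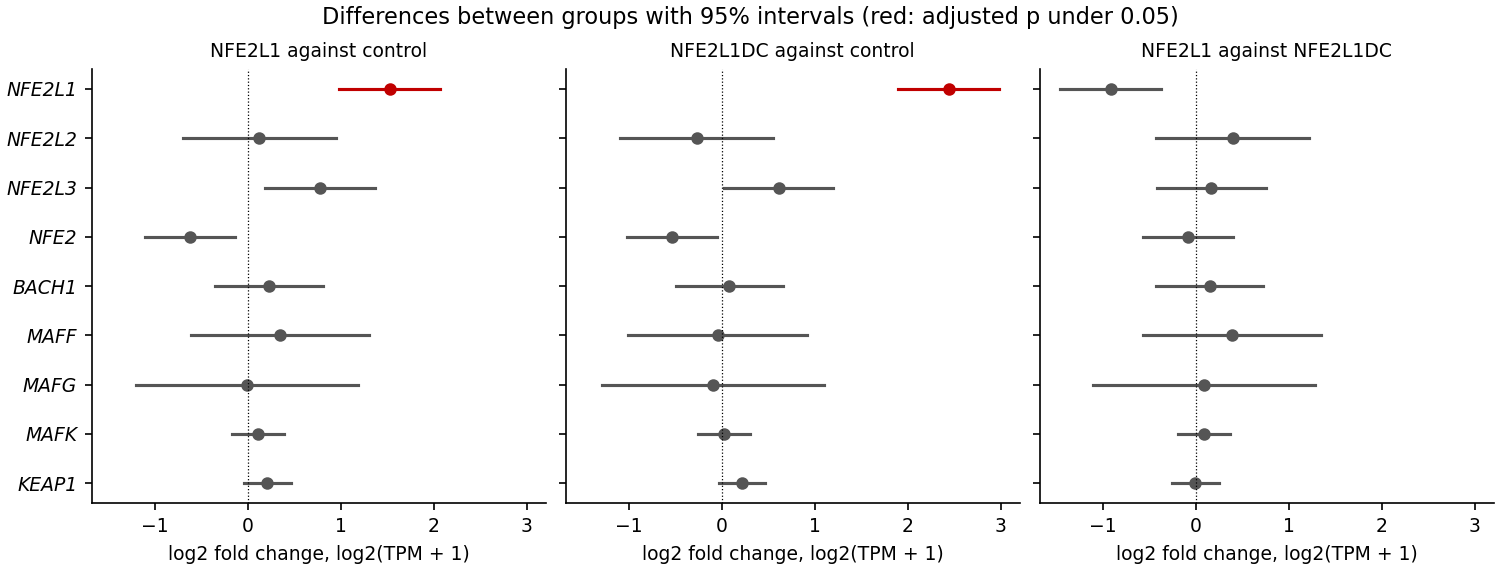
Log2 fold changes of the 9 tested members (x axis, on the log2(TPM + 1) scale) with 95% intervals from limma, 1 panel per comparison; red marks an adjusted p under 0.05. Only NFE2L1 against control is red, in both lines; the intervals of MAFG span more than 1 log2 unit on each side of 0 and those of MAFK and KEAP1 less than 0.5.

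NFE2L2 (ENSG00000116044, chromosome 2, 177227595 to 177392697, minus strand) passed the test in no comparison. It was at 12.1, 13.7 and 36.6 TPM in control, 22.1, 14.4 and 25.5 TPM with NFE2L1 and 16.9, 14.8 and 13.6 TPM with NFE2L1DC. Control replicate 3 was the highest of all 9 libraries while control replicates 1 and 2 lay at the low end, within the range of the NFE2L1DC line or just below it. The log2 fold change was 0.12 (95% interval -0.70 to 0.95, limma adjusted p = 0.838) in the NFE2L1 line and -0.27 (-1.10 to 0.55, adjusted p = 0.677) in the NFE2L1DC line, and between the lines it was 0.40 (-0.43 to 1.22, adjusted p = 0.877). Without control replicate 3 the difference in the NFE2L1 line was 0.60 (limma adjusted p = 0.0586) and in the NFE2L1DC line 0.21 (adjusted p = 0.51). After correction for GC content and length this library remained apart, at 5.22 on the log2(TPM + 1) scale beside 3.85 and 3.95 in control replicates 1 and 2. A sense-overlapping gene, AC019080.1, shares 1054 exonic bases with NFE2L2 and was at 0.762 to 3.21 TPM.

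NFE2L3 (ENSG00000050344, chromosome 7, 26152240 to 26187125, plus strand) was at 0.889, 1.41 and 2.44 TPM in control, 2.77, 3.42 and 3.73 TPM with NFE2L1 and 4.19, 2.13 and 2.42 TPM with NFE2L1DC. All 3 NFE2L1 libraries lay above all control libraries, while the NFE2L1DC line overlapped control. Between the NFE2L1 line and control the libraries did not overlap for 32.1% of all genes. The log2 fold change was 0.78 (95% interval 0.19 to 1.36, limma adjusted p = 0.087) and 0.61 (0.02 to 1.20, adjusted p = 0.216), and neither passed. Both passed without control replicate 3, at 1.01 (limma adjusted p = 0.0129) and 0.84 (adjusted p = 0.0353).

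NFE2 (ENSG00000123405, chromosome 12, 54292111 to 54301121, minus strand) had lower means in both overexpressing lines than in control, without passing the test. It was at 4.15, 3.57 and 2.89 TPM in control, 1.59, 1.93 and 2.32 TPM with NFE2L1 and 2.16, 2.99 and 1.38 TPM with NFE2L1DC. The NFE2L1 libraries lay below all control libraries, in a comparison where 32.1% of all genes did not overlap. NFE2L1DC replicate 2 lay inside the control range. The log2 fold change was -0.62 (95% interval -1.10 to -0.14, limma adjusted p = 0.0931) and -0.54 (-1.02 to -0.06, adjusted p = 0.188), and neither passed. The first passed without control replicate 3, at -0.73 (limma adjusted p = 0.0354) and the second did not at -0.64 (adjusted p = 0.0681). Of 8 markers of the erythroid and megakaryocyte lineage, where NFE2 is known, 6 were under 1 TPM in every library and TAL1, HBB and GP9 were listed at 0 in all 9. Their sum was 4.05 to 4.67 TPM in control, 2.5 to 3.16 TPM with NFE2L1 and 2.34 to 3.51 TPM with NFE2L1DC, mostly from HBA1 and the platelet integrin gene ITGA2B. The part of this in the NFE2 values was not tested, and in bulk RNA fewer cells of a type and less RNA per cell cannot be told apart.

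The repressors were scarce. BACH1 (ENSG00000156273, chromosome 21, 29194071 to 29630751, plus strand), which heme releases from DNA, was at 1.24, 1.22 and 2.91 TPM in control, 1.60, 2.19 and 2.76 TPM with NFE2L1 and 1.55, 2.48 and 1.59 TPM with NFE2L1DC. Control replicate 3 was again the highest library and the other control libraries the lowest. The log2 fold change was 0.23 (95% interval -0.35 to 0.81, limma adjusted p = 0.562) and 0.08 (-0.50 to 0.66, adjusted p = 0.868), and without control replicate 3 it was 0.50 (adjusted p = 0.0921) and 0.35 (adjusted p = 0.24). Its transcript has the lowest GC content of the members, 38.6%, and after correction for GC content and length its control libraries were at 1.47, 1.45 and 1.79 on the log2(TPM + 1) scale. BACH2 (ENSG00000112182, chromosome 6, 89926529 to 90296908, minus strand), known from B lymphocytes, was listed at 0 in 5 libraries and did not exceed 0.0136 TPM in the others, and it did not enter the fit. An exact permutation test of 3 against 3 libraries, which cannot go below 0.1, gave p = 0.7 for each line against control. Of 5 B lymphocyte markers, MS4A1 was listed at 0 in all 9 libraries, 4 were under 1 TPM in every library and CD22 was above 1 TPM in each. These markers summed to 1.78 to 3.77 TPM in control, 1.29 to 2.0 TPM with NFE2L1 and 1.84 to 2.29 TPM with NFE2L1DC.

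None of the small MAFs passed the test in any comparison, and their spread within groups ranged from narrow to wide. MAFK (ENSG00000198517, chromosome 7, 1530714 to 1543043, plus strand) was at 25.4, 27.8 and 27.2 TPM in control, 31.9, 24.1 and 31.5 TPM with NFE2L1 and 28.7, 27.9 and 25.1 TPM with NFE2L1DC. Its ranges overlapped in every comparison, and the 95% intervals of its log2 fold changes against control were -0.17 to 0.38 and -0.26 to 0.30 (limma adjusted p = 0.571 and 0.931). MAFK shares 809 exonic bases with TMEM184A on the opposite strand, which was at 3.95 to 7.0 TPM.

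MAFG (ENSG00000197063, chromosome 17, 81918270 to 81927714, minus strand) had nearly equal means of 23.5 ± 7.93, 24.5 ± 12.1 and 24.6 ± 13.9 TPM (SD, n = 3) in control, the NFE2L1 line and the NFE2L1DC line. Its libraries were at 24.8, 15.0 and 30.6 TPM, at 12.4, 36.5 and 24.4 TPM and at 32.2, 8.52 and 33.0 TPM in these groups. In each group 1 library lay well below the others: control replicate 2, NFE2L1 replicate 1 and NFE2L1DC replicate 2. The standard deviation within groups, 0.80 on the log2(TPM + 1) scale, was larger than that of 98.9% of the genes tested. The intervals of the log2 fold change, -1.20 to 1.18 and -1.29 to 1.10 (limma adjusted p = 0.991 and 0.928), therefore leave room for a change of more than 1 log2 unit in either direction. SIRT7, a neighbour that shares 105 exonic bases with MAFG on the same strand, stayed between 25.1 and 30.7 TPM.

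MAFF (ENSG00000185022, chromosome 22, 38200767 to 38216511, plus strand), the small MAF known to be induced by stress, was at 4.74, 4.401 and 4.29 TPM in control, 3.85, 4.24 and 12.1 TPM with NFE2L1 and 1.96, 5.80 and 6.42 TPM with NFE2L1DC. The control libraries were close together, and NFE2L1 replicate 3, which had the highest NFE2L1 of its line, had the highest MAFF of all. The log2 fold change against control was 0.34 (95% interval -0.62 to 1.30, limma adjusted p = 0.604) in the NFE2L1 line and -0.12 without its replicate 3, and -0.05 (-1.01 to 0.91, adjusted p = 0.957) in the NFE2L1DC line. The spread of MAFF within groups was larger than that of 97.7% of genes, that of NFE2L2 than that of 96.3%, and those of MAFK and KEAP1 than those of 27.6% and 24.3%.

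The messengers of the 3 small MAFs summed to 47.1 to 62.2 TPM in control, 48.1 to 68.0 TPM with NFE2L1 and 42.2 to 64.5 TPM with NFE2L1DC. MAFF made up 3.1% to 17.8% of this sum over the 9 libraries and MAFG 20.2% to 56.3%. Set against this sum, NFE2L1 was at 1.03 to 1.89 TPM per TPM of small MAF in control, 2.78 to 5.21 in the NFE2L1 line and 7.08 to 10.1 in the NFE2L1DC line. NFE2L1 made up 60.4% to 85.9% of the summed TPM of the 4 CNC activators in control, 88.7% to 91.8% in the NFE2L1 line and 95% to 96.5% in the NFE2L1DC line. These ratios are of messengers, are carried by the change of NFE2L1 itself and were not tested.

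**Figure D3:**
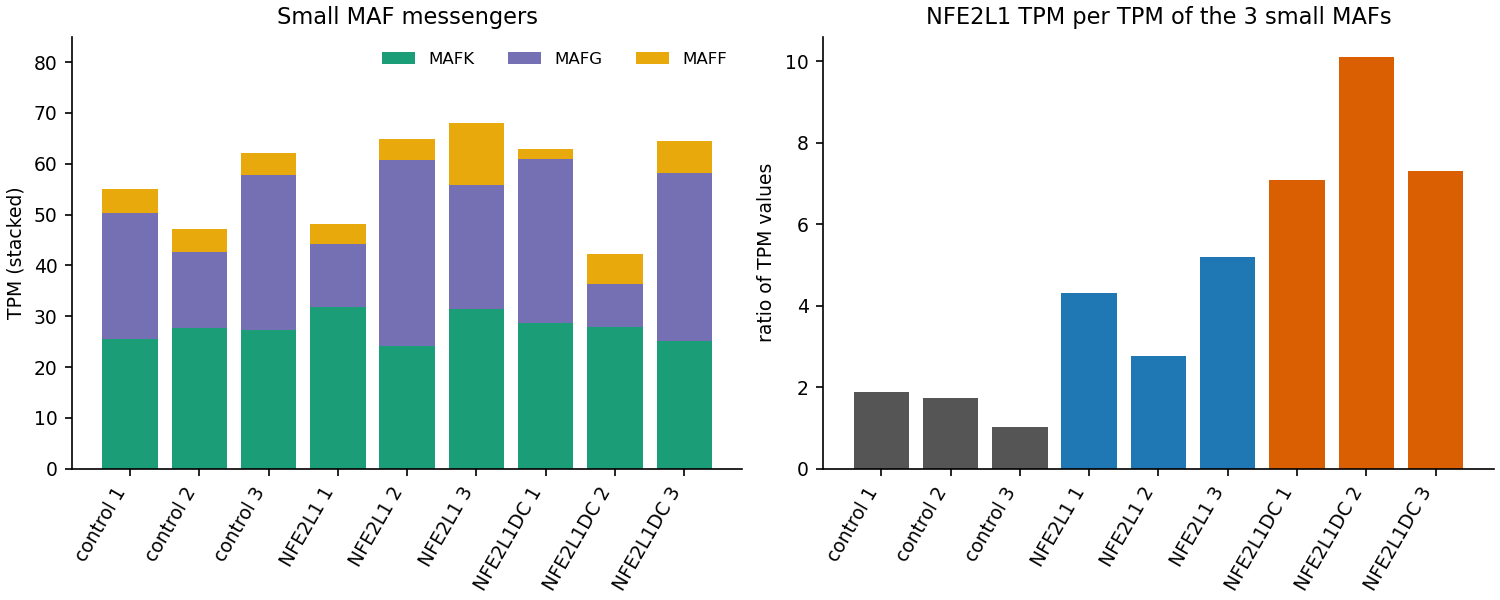
Left, TPM of MAFK, MAFG and MAFF stacked for each library; right, NFE2L1 TPM divided by their sum. The stacks range from 42.2 to 68.0 TPM with no separation of the groups, while the ratio goes from 1.03 to 1.89 in control up to 7.08 to 10.1 in the NFE2L1DC line.

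KEAP1 (ENSG00000079999, chromosome 19, 10486120 to 10503741, minus strand) had the smallest pooled standard deviation within groups on the log2(TPM + 1) scale, 0.13, next to 0.14 for MAFK, although its control libraries varied more than those of MAFK. It was at 43.85, 57.1 and 48.1 TPM in control, 55.8, 54.4 and 61.9 TPM with NFE2L1 and 58.5, 53.5 and 60.5 TPM with NFE2L1DC. Control replicate 2 lay within the range of both lines and the other control libraries lay below all 6 overexpressing libraries. The log2 fold change was 0.21 in each line (95% intervals -0.04 to 0.46, limma adjusted p = 0.229 and 0.293), and it was 0.00 between the lines (-0.25 to 0.25). NFE2L2 was at 0.24 to 0.761 TPM per TPM of KEAP1 in control, 0.264 to 0.412 in the NFE2L1 line and 0.224 to 0.289 in the NFE2L1DC line, with control replicate 3 the highest.

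Genes that act with these factors were counted next, from lists chosen with earlier results of these data known. Both lines are compared with the same control libraries. When 1 library was left out, the number of genes called in the NFE2L1 line rose from 1468 to 5056 without control replicate 3, and fell to between 501 and 613 without either other control library or any 1 NFE2L1 library. Of 22 tested partners of KEAP1 and genes of NFE2L2 and BACH1 turnover, 1 rose and none fell in the NFE2L1 line, TRIM21, an interferon-induced ubiquitin ligase, from 10.49, 10.6 and 10.9 TPM in control to 18.5, 19.95 and 20.8 TPM. That is 4.55% of the list, beside 10.4% of all genes called. It was at 10.3, 9.92 and 11.4 TPM in the NFE2L1DC line, and its log2 fold change between the lines was 0.85 (limma adjusted p = 0.00694), a call that was lost without NFE2L1 replicate 2 (0.84, adjusted p = 0.057) or 3 (0.81, adjusted p = 0.0649). In the NFE2L1DC line 1 of the 22 rose, the mitochondrial phosphatase PGAM5, by 0.36 (limma adjusted p = 0.0263), a call that held in 6 of 17 other settings and was lost without control replicate 2 or without any one library of either overexpressing line (no gene of the list was then called). That too is 4.55% of the list, beside 3.61% of all genes. The list had 8 and 5 genes called without control replicate 3, beside 36.3% and 24.7% of all genes. The list's median log2 fold change was 0.24 and 0.19, beside 0.17 and 0.12 over all genes.

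Of 29 tested antioxidant response element genes, 8 rose and 3 fell in the NFE2L1 line, where 7.83% of all genes rose and 2.57% fell. Their median was 0.23 beside 0.17 over all genes. The number called was 17 without control replicate 3, where 36.3% of all genes were called. It was 3 to 5 without either other control library or any 1 NFE2L1 library. HMOX1, the heme-degrading enzyme, was at 35.0, 43.8 and 29.8 TPM in control, 261.9, 287.6 and 286.8 TPM with NFE2L1 and 23.8, 28.1 and 28.3 TPM with NFE2L1DC. It rose in the NFE2L1 line by 2.93 (limma adjusted p = 5.53e-06), it did not pass in the NFE2L1DC line at -0.41 (adjusted p = 0.127), and between the lines it differed by 3.34 (adjusted p = 5.79e-06). Both calls held in all 17 other settings. ABCC3 went from 13.6 ± 2.13 TPM in control to 33.2 ± 4.70 TPM with NFE2L1 and 23.1 ± 6.05 TPM with NFE2L1DC (SD, n = 3). It rose by 1.22 in the NFE2L1 line (limma adjusted p = 0.00552), in all 17 other settings too, and was not called in the NFE2L1DC line. AKR1B10, an aldo-keto reductase, reached 1 TPM only in the 3 NFE2L1 libraries, at 2.13, 1.77 and 1.75 TPM, and so entered the test through that group. EPHX1, an epoxide hydrolase, fell by 0.51 on the log2 scale in the NFE2L1 line (limma adjusted p = 0.00905). In the NFE2L1DC line 2 of the 29 rose and 1 fell, beside 2.06% and 1.54% of all genes, with a median of 0.10. There the number called was 13 without control replicate 3, where 24.7% of all genes were called. It was 0 without control replicate 2 or NFE2L1DC replicate 3, and 1 without NFE2L1 replicate 3 or NFE2L1DC replicate 1. The genes that rose were OSGIN1 and SRXN1, with calls that held in 9 and 6 of 17 other settings. The gene that fell was CBR1, a carbonyl reductase, at 217.7, 219.6 and 222.1 TPM in control, 238.9, 236.7 and 235.2 TPM with NFE2L1 and 79.3, 139.3 and 101.5 TPM with NFE2L1DC. Its log2 fold change there was -1.07 (limma adjusted p = 0.0109), a call that was lost without control replicate 2 (-1.07, adjusted p = 0.0514) or NFE2L1DC replicate 3 (-1.06, adjusted p = 0.0547). The call was also lost with only the 2 groups fitted (limma adjusted p = 0.0613).

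Of 11 tested genes that BACH1 is known to repress, a list that overlaps the last and includes MAFG, 4 rose in the NFE2L1 line, where 7.83% of all genes rose, none fell, and none was called in the NFE2L1DC line, where 3.61% of all genes were called. The 4 were HMOX1, the cystine transporter gene SLC7A11, TXNRD1 and GCLM. The median of the list was 0.40 and 0.17, beside 0.17 and 0.12 over all genes. The number called in the NFE2L1 line was 1 or 2 without control replicate 1 or 2, any 1 NFE2L1 library or NFE2L1DC replicate 3. Over all fits that left out 1 library it ranged from 1 to 6, beside 501 to 5056 of all genes. In the NFE2L1DC line the number was 5 without control replicate 3, where 24.7% of all genes were called, and 1 without NFE2L1DC replicate 2. HMOX1 was the member of the 4 whose call held in every setting. Of 14 genes of heme synthesis and transport, 2 rose in the NFE2L1 line (14.3%, near the 10.4% of all genes called), ALAS1, which catalyses the first step of heme synthesis, by 0.39 and the heme transporter gene SLC48A1 by 0.46 on the log2 scale. Both calls were lost under median-of-ratios scaling (0.22 and 0.28) and without control replicate 2, NFE2L1 replicate 1 or NFE2L1 replicate 3, and that of SLC48A1 also without NFE2L1 replicate 2. None of the 14 was called in the NFE2L1DC line, and the medians of 0.10 and 0.04 lay below those of all genes, 0.17 and 0.12. The counts were 4 and 2 without control replicate 3, beside 36.3% and 24.7% of all genes.

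Of 13 tested large MAFs and other CNC partners, 5 rose and 2 fell in the NFE2L1 line. Over all genes 7.83% rose and 2.57% fell there. In the NFE2L1DC line 2 of the list rose, where 2.06% of all genes rose. The list also holds the coactivators CREBBP and EP300, which were not called. FOSL1, an AP-1 subunit of the FOS family, was at 15.8, 17.5 and 18.9 TPM in control, 67.1, 71.5 and 69.6 TPM with NFE2L1 and 39.3, 31.4 and 48.0 TPM with NFE2L1DC. Its groups did not overlap. That held for 32.1% of all genes in the NFE2L1 line against control, 22.7% in the NFE2L1DC line and 18.0% between the lines. FOSL1 rose by 1.94 (limma adjusted p = 9.17e-05) and 1.12 (adjusted p = 0.00502) against control, in all 17 other settings too. FOSL2 went from 28.2 ± 1.99 TPM in control to 53.8 ± 1.70 and 43.4 ± 3.08 TPM (SD, n = 3), and its call in the NFE2L1DC line (0.61, limma adjusted p = 0.0115) was lost without control replicate 2 or NFE2L1DC replicate 1 or 3. That call was also lost with median-of-ratios scaling (limma adjusted p = 0.0518) and with only the 2 groups fitted (adjusted p = 0.0716). JUN went from 2.44 ± 0.0764 to 6.98 ± 0.383 TPM with NFE2L1 and was at 2.84 ± 0.344 TPM with NFE2L1DC. Its log2 fold change between the lines was 1.06 (limma adjusted p = 0.00694), a call that was lost without NFE2L1 replicate 2 (1.02) or 3 (1.08). The genes that fell in the NFE2L1 line were JUND and MAFA. JUND went from 186.5 ± 3.32 TPM in control to 154.3 ± 4.66 TPM with NFE2L1 and was at 163.6 ± 4.695 TPM with NFE2L1DC. Its log2 fold change in the NFE2L1 line was -0.27 (limma adjusted p = 0.0258), a call that held in 8 of 17 other settings. The large MAF gene MAFA, named after its values were seen, was at 1.35, 1.09 and 1.10 TPM in control and 0.478, 0.265 and 0.681 TPM in the NFE2L1 line (log2 fold change -0.57, limma adjusted p = 0.0484), a call that held in 3 of 16 other settings and was lost without any 1 library other than control replicate 3. It reached 1 TPM in the 3 control libraries and in 1 other, and so entered the test through the group where it is high. The median of the list was 0.33 and 0.15, beside 0.17 and 0.12 over all genes. The number called in the NFE2L1 line was 4 without control replicate 1 or 2 or any 1 NFE2L1 library. Over all fits that left out 1 library it ranged from 4 to 8, beside 501 to 5056 of all genes. In the NFE2L1DC line the number was 5 without control replicate 3, where 24.7% of all genes were called. It was 1 without control replicate 2 or NFE2L1DC replicate 1 or 3.

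Of 31 constitutive proteasome subunits, the known targets of NFE2L1, 9 rose in the NFE2L1 line, where 7.83% of all genes rose, and 2 in the NFE2L1DC line, where 2.06% did. None fell in either, and none was called between the lines, where the median of the list was 0.12 and that of all genes 0.06. Without control replicate 3 the counts were 16 and 10, beside 36.3% and 24.7% of all genes. Without either other control library or any 1 NFE2L1 library they were 2 to 4 in the NFE2L1 line, and in the NFE2L1DC line leaving out any 1 other library left 0 or 1. PSMD11, a subunit of the regulatory particle, was at 58.97 ± 2.50 TPM in control, 87.4 ± 3.16 TPM with NFE2L1 and 77.7 ± 7.18 TPM with NFE2L1DC (SD, n = 3). Its call held in 16 of 17 other settings in the NFE2L1 line and in 4 of 17 in the NFE2L1DC line. The median of the list was 0.34 and 0.17, beside 0.17 and 0.12 over all genes. Median-of-ratios scaling moved the medians of all genes to 0.02 and 0.02, left 5 subunits called in the NFE2L1 line and 1 in the NFE2L1DC line, and changed the split of all called genes from 1105 higher and 363 lower to 557 and 464 in the former and from 291 and 218 to 119 and 174 in the latter.

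**Figure D4:**
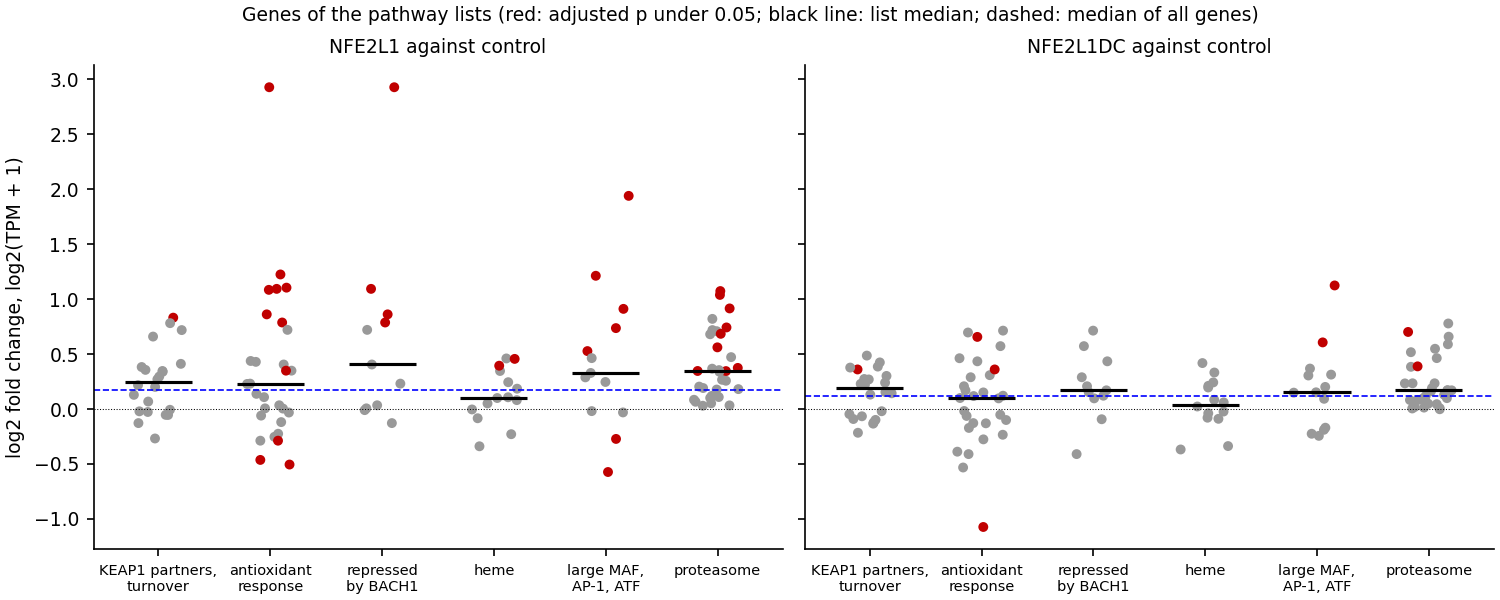
Log2 fold changes (y axis, log2(TPM + 1) scale) of the tested genes of the 6 lists in each line against control; red marks an adjusted p under 0.05, black lines are list medians and the dashed line the median of all genes (0.17 and 0.12). HMOX1 is the highest red point in the lists of antioxidant response and BACH1-repressed genes in the NFE2L1 panel and is not among the red points of the NFE2L1DC panel.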

How the data were processed

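Total RNA of 9 libraries, 3 per group, was sequenced. The authors deposited 1 table of gene-level TPM for all libraries. The submitters' processing notes name CASAVA and GRCh38, and the sources used here do not give the aligner, quantifier, annotation, strand handling or filters. No counts were used and TPM keeps no depth, so the depth behind each value is unknown and no counting interval is given. Of 58174 gene IDs, 57836 matched GENCODE 29 (GRCh38), the source of coordinates and GC content.

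log2(TPM + 1) was tested with limma 3.58.1 (R 4.3.3, variance trend, 1 mean per group over all 9 libraries, 2-sided) for 14118 genes with at least 1 TPM in at least 3 libraries. p-values were adjusted by Benjamini-Hochberg over all genes of a comparison, with a threshold of 0.05, and fold changes on this scale understate those of low genes. The method was tested on simulated data with independent noise for each gene, which carried no trend with GC content shared among genes. Named were all 10 members, up to 5 called genes with the smallest p of each list, and the 3 genes most like each called member. The members and lists were chosen with earlier results of these data known. The 17 other settings changed the pseudocount (0.1), the filter, the scaling, a GC and length correction (splines with 5 degrees of freedom), the libraries fitted, a replicate block, the variance trend, or left out 1 library. Of the marker lists, 2 genes are not reported here.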

Additional observations from a re-analysis of the deposited data

Results flagged for a closer look

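For 6 genes of the lists the difference between the overexpressing lines itself passed the test (limma on log2(TPM + 1), n = 3 per line, adjusted p under the threshold). By list these were 3 of 29 antioxidant genes, 2 of 13 large MAFs and partners, 1 of 22 turnover genes and 1 of 11 BACH1-repressed genes. HMOX1 is counted in the first and the last of these. None of the 14 heme or 31 proteasome genes was called. Over all genes 0.793% were called, and the lists were chosen with earlier results of these data known. HMOX1 was 3.34 higher on the log2 scale in the NFE2L1 line than in the NFE2L1DC line (adjusted p = 5.79e-06). CBR1 was 1.18 higher (limma adjusted p = 0.0107), and this call was lost without any 1 NFE2L1 library or NFE2L1DC replicate 3, and with no filter (adjusted p = 0.0512). AKR1B10 was 1.10 higher (limma adjusted p = 0.0369), but it entered the test only through the NFE2L1 libraries, the group where it is high. Its call held in 7 of the 13 other settings that tested it and was lost with a pseudocount of 0.1 (adjusted p = 0.154), with no filter (adjusted p = 0.0739), with median-of-ratios scaling and without any 1 NFE2L1DC library. JUN was 1.06 higher (limma adjusted p = 0.00694), lost without NFE2L1 replicate 2 or 3. TRIM21 was 0.85 higher (limma adjusted p = 0.00694), lost without the same libraries. FOSL1 was 0.81 higher (limma adjusted p = 0.0396), a call that held in 3 of 17 other settings. The lines also differed in the level of NFE2L1 itself, at a mean of 247.4 and 447.9 TPM, and its part in these differences was not tested.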

How the results depend on the processing

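Of 456 member values in 17 other settings, 418 kept direction and side of the threshold, 4 came to pass it and 34 changed sign, none of these past the threshold in either setting. In the NFE2L1 line against control, median-of-ratios scaling gave -0.044 for NFE2L2 and -0.066 for MAFK, and the GC and length correction -0.005 for BACH1 and 0.072 for MAFG. In the NFE2L1DC line median-of-ratios scaling gave -0.087 for MAFK, and the GC and length correction -0.109 for BACH1 and 0.028 for MAFF. Between the lines the GC and length correction gave 0.05 for KEAP1. The other sign changes came from leaving out 1 library, with ranges in the NFE2L1 line of -0.157 to 0.602 for NFE2L2, -0.351 to 0.392 for MAFG and -0.119 to 0.6 for MAFF. In the NFE2L1DC line they were -0.016 to 0.075 for MAFK, -0.064 to 0.352 for BACH1, -0.288 to 0.375 for MAFF, -0.552 to 0.207 for NFE2L2 and -0.405 to 0.514 for MAFG, and between the lines -0.059 to 0.033 for KEAP1, -0.276 to 0.097 for NFE2, -0.523 to 0.486 for MAFG and -0.073 to 0.645 for MAFF. The cause was not tested.

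In the NFE2L1 line 947 genes were called with no filter and 848 with only the 2 groups fitted. The antioxidant list had 6 calls and the BACH1-repressed list 2 with no filter, the proteasome list 5 with no filter, with median-of-ratios scaling or with no variance trend, the turnover list 2 with 1 TPM required in all libraries and 3 with GC and length corrected, the heme list 0 with median-of-ratios, and the list of large MAFs 4 with only the 2 groups. In the NFE2L1DC line 293 genes were called with median-of-ratios, 101 with only the 2 groups and 313 with no variance trend. There the proteasome list had 1 call with median-of-ratios, 4 with GC and length corrected and 0 with no filter, only the 2 groups or no trend. The turnover list had 0 with median-of-ratios, only the 2 groups or no trend, the antioxidant list 1 with median-of-ratios and 0 with only the 2 groups, the list of large MAFs 1 in both of these, and the BACH1-repressed list 1 with GC and length corrected. Between the lines 73 genes were called with median-of-ratios, the antioxidant list had 1 with no filter, and the list of large MAFs had 1 with pseudocount 0.1, no filter, median-of-ratios, GC and length corrected, only the 2 groups, or no trend.

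Same-numbered libraries correlated between -0.189 and 0.109 in their deviations from group means, and differently numbered ones between -0.182 and 0.276. With 3 libraries per group these values cannot decide whether same-numbered libraries were paired, and the labels give only a number. With the replicate block 872, 198 and 58 genes were called in the NFE2L1 line, the NFE2L1DC line and between them. Under the block the list of large MAFs had 4 and 1 calls in the NFE2L1 line and between the lines, and in the NFE2L1DC line the antioxidant list had 1 and the proteasome and turnover lists 0.

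Leaving out 1 library gave 501 to 5056, 110 to 3440 and 36 to 148 genes in the NFE2L1 line, the NFE2L1DC line and between them, and 1 to 3, 1 to 2 and 0 to 1 members. In the same order the ranges were 1 to 8, 0 to 5 and 0 to 1 for the turnover list, 3 to 17, 0 to 13 and 1 to 3 for the antioxidant list, 1 to 6, 0 to 5 and 1 to 1 for the BACH1-repressed list, 0 to 4, 0 to 2 and 0 to 0 for the heme list, 4 to 8, 1 to 5 and 0 to 2 for the large MAFs, and 2 to 16, 0 to 10 and 0 to 0 for the proteasome. NFE2L3 did not enter the fit that requires 1 TPM in all libraries, and BACH2 entered none with a filter. With 3 libraries per group and no counts, precision is limited most for MAFG, MAFF and NFE2L2, whose spread within groups is large.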
